A study of Mus musculus with 18 samples.

Results

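The breakdown of leucine, isoleucine and valine was followed in mouse liver through 9 genes, Bcat2, Bckdha, Bckdhb, Dbt, Bckdk, Mccc1, Mccc2, Auh and Hibadh, chosen by name from the 54532 genes of the deposited tables. All mice were male C57BL/6J and were fasted overnight before the liver was taken, and the diets began at 4 wk of age. In the first experiment, 5 mice ate the control diet (Ctrl) and 5 ate a diet with 99% of its riboflavin removed (B2D) for 4 wk. The second experiment had 4 control-fed (Ctrl+FF) and 4 riboflavin-deficient mice (B2D+FF) with 9 wk of diet, and all 8 received fenofibrate, a drug that activates the nuclear receptor PPARα, by daily gavage at 300 mg/kg from wk 7 to wk 9, with the last dose 2 hr before harvest. Each mouse gave 1 RNA-seq library of whole liver. No group of the second experiment went without fenofibrate, so the drug, the time on diet and the experiment cannot be told apart, and B2D was compared with its own control within each experiment.

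The pathway starts in mitochondria. A transaminase encoded by Bcat2 moves the amino group of each branched-chain amino acid to 2-oxoglutarate, and the ketoacids that result are decarboxylated by the branched-chain ketoacid dehydrogenase complex (BCKDH). Bckdha and Bckdhb encode the α and β subunits of its thiamine-dependent E1 component, Dbt encodes the lipoate-bearing E2 core, and E3 is the flavoprotein dihydrolipoamide dehydrogenase, encoded by Dld. BCKDH is switched off when the kinase encoded by Bckdk phosphorylates the E1α subunit and on again when the phosphatase encoded by Ppm1k removes the phosphate. Further down, leucine carbon passes through the biotin-dependent methylcrotonyl-CoA carboxylase (Mccc1 and Mccc2) and methylglutaconyl-CoA hydratase (Auh), and valine carbon through 3-hydroxyisobutyrate dehydrogenase (Hibadh). Hepatocytes are known for a low transaminase activity and a high BCKDH activity. None of the 9 gene products is a flavoprotein, while E3 and the acyl-CoA dehydrogenases of all 3 branches bind FAD, which is made from riboflavin.

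The chemistry of the pathway hangs on a few residues, and their codons are shown because they are the points at which the kinase and the cofactors lipoate and biotin act on members of the group. Each stretch is written 5′ to 3′ on the coding strand from the GENCODE M21 transcript of the gene (GRCm38), with the codon in capitals and 12 bases on either side.
Bckdha, serine phosphorylated by the kinase: attggccaccacAGCaccagtgacgac
Dbt, lysine that carries lipoate: gttcaaagtgacAAGgcctctgtcacc
Mccc1, lysine that carries biotin: atgattgccatgAAGatggagcatacc
The Bckdha codon is number 338 of 446 and lies in exon 8 of 9 on the minus strand, at chr7:25631156-25631158. The Dbt codon is number 105 of 482, in exon 4 of 11 on the plus strand, at chr3:116533316-116533318. The Mccc1 codon is number 677 of 717, in exon 18 of 19 on the minus strand, at chr3:35960939-35960941, and the stretch shown runs on into exon 19.

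The tables give FPKM, the number of fragments per kilobase of a gene after scaling for library size, which was done within each table. Between 15320729 and 21898502 reads were counted on genes per library, and the members drew from 218 reads (Bcat2 in a B2D+FF mouse) to 6774 reads per library. In the first experiment, 2 libraries stood apart in the number of genes with any read, Ctrl 5 with 17079 and B2D 3 with 15866, against 18137 to 19489 in the other 16. Summed FPKM of the 10 hepatocyte markers was between 34373 and 49429 in the first experiment and between 20546 and 25772 in the second, each on its own table's scale, and that of the 9 pancreatic acinar markers at most 0.401 and of the 6 skeletal muscle markers at most 2.68. Adipocyte markers summed to between 28.4 and 290 FPKM over the 6 genes, mostly from Cidec and Fabp4, which fatty liver also expresses. Their sum was 107 to 124 in Ctrl+FF and 131 to 290 in B2D+FF, without overlap. Adipoq, made by fat cells, was at 6.19 FPKM in B2D 2 and 2.47 in Ctrl+FF 1, against at most 0.413 in the other 16 libraries. Cfd, another fat cell gene, was at 28.5 in B2D 2 and at most 0.732 in the other mice of the first experiment, and at 6.21 to 19.6 in Ctrl+FF against 0.587 to 4.34 in B2D+FF. The 5 red blood cell markers summed to 184 to 250 in Ctrl, 91.2 to 392 in B2D, 437 to 630 in Ctrl+FF and 284 to 690 in B2D+FF. Of all 70 markers of 10 cell types, 1 separated B2D from Ctrl without overlap (4.98% of all tested genes did), and in the second experiment 9 lay below and 5 above every control (14.3% of all tested genes separated). The hepatocyte markers were split, with Alb and Ttr among the 9 and Tat, Pck1 and Hnf4a among the 5. The Kupffer cell gene Clec4f was lower on the deficient diet in both experiments, at 17.0 to 23.0 against 25.5 to 32.7 and at 11.5 to 20.2 against 20.5 to 33.7 FPKM, while the sums of the 8 Kupffer cell and macrophage markers overlapped. The part of these shifts in the members' values was not tested. In whole liver, fewer cells of a type and less RNA per cell cannot be told apart.

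**Figure D1:**
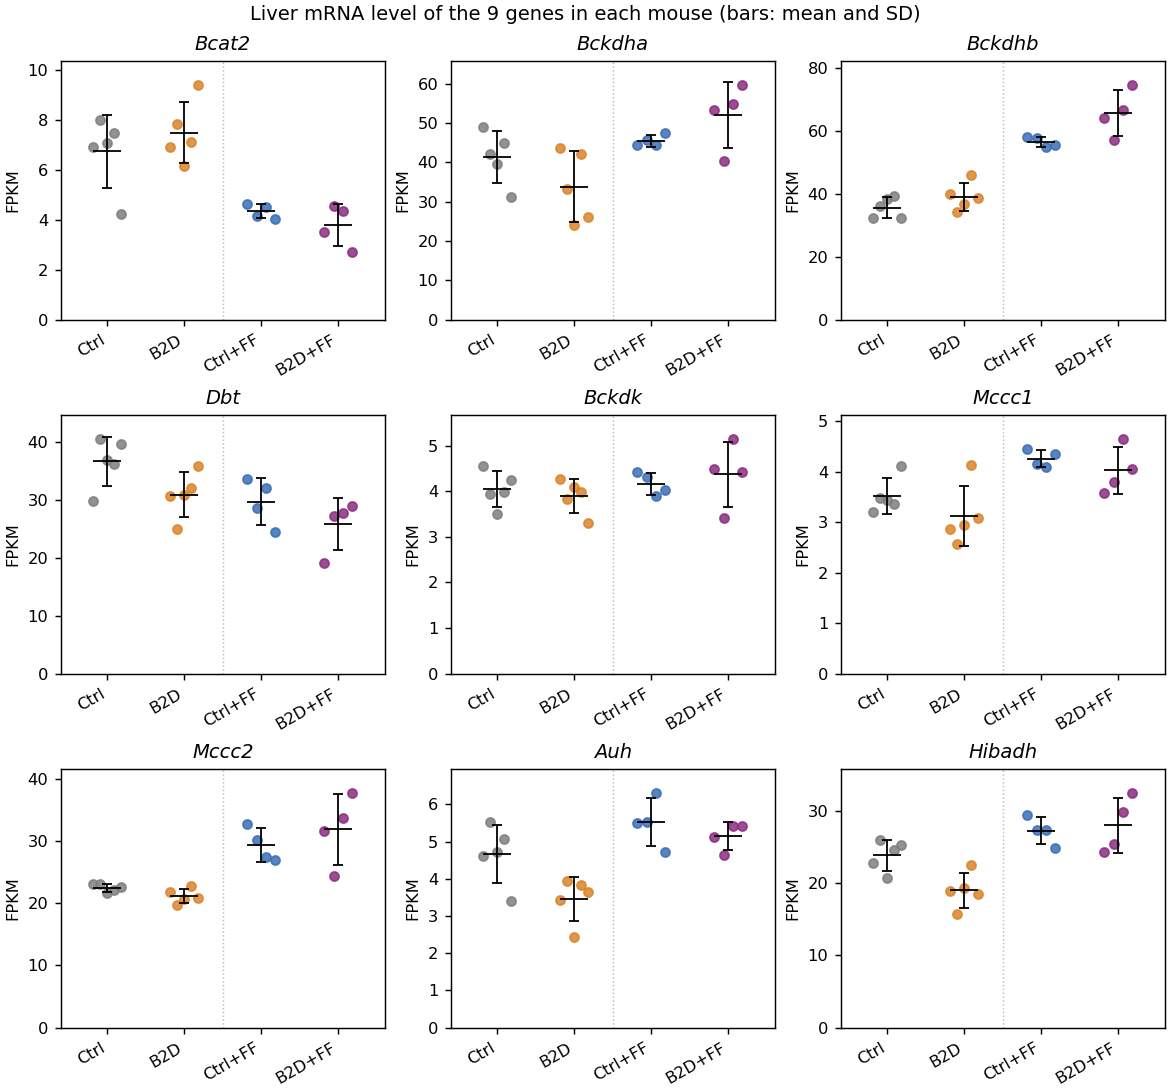
FPKM of the 9 genes (y axes, from 0) in each of the 18 mice, grouped by Ctrl, B2D, Ctrl+FF and B2D+FF (x axes), with the group mean and SD as bars. The dotted line parts the 2 experiments, which were normalized separately; B2D and its control overlap in every panel, and Bckdhb and Mccc2 lie higher in all mice of the second experiment.

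With the deposited gene lengths, the E1 subunit genes Bckdha and Bckdhb were among the 3 highest of these mRNAs per length of gene in every group, Dbt joined them, clear of the other members, in the first experiment, and the kinase was among the 4 lowest. Mean FPKM over the groups ran from 3.12 for Mccc1 in B2D to 65.6 for Bckdhb in B2D+FF. In Ctrl, Bckdha (41.4 ± 6.60, SD, n = 5), Dbt (36.6 ± 4.21) and Bckdhb (35.6 ± 3.27) led, and their ranges over the mice overlapped, so their order was not fixed. Hibadh (23.8 ± 2.14) and Mccc2 (22.5 ± 0.628) followed, below all 3 subunit genes in 5 of 5 Ctrl mice, and overlapped each other. Bcat2 (6.74 ± 1.46), Auh (4.67 ± 0.791), Bckdk (4.05 ± 0.394) and Mccc1 (3.51 ± 0.352) were lowest, each overlapping its neighbour. The step from Bckdhb to Hibadh and the step from Mccc2 to Bcat2 were the 2 of 8 at which Ctrl ranges did not overlap. In B2D the subunits still led, with Bckdhb first (39.1 ± 4.46), and the steps from Dbt to Mccc2, from Hibadh to Bcat2 and from Bcat2 to Bckdk did not overlap. In Ctrl+FF Bckdhb (56.5 ± 1.55) lay above Bckdha (45.5 ± 1.48) in 4 of 4 mice with no overlap, and Auh (5.52 ± 0.648) above Bcat2 (4.34 ± 0.286). Dbt (29.7 ± 4.03) overlapped Mccc2 (29.3 ± 2.69) there and lay above it in 2 of 4 mice. In B2D+FF Bckdhb and Bckdha (52.1 ± 8.33) led, Dbt (25.8 ± 4.48) ranked behind Mccc2 (31.8 ± 5.63) and Hibadh (28.0 ± 3.80) and overlapped both, and the last 4 places were taken by Auh (5.15 ± 0.369), Bckdk (4.37 ± 0.715), Mccc1 (4.02 ± 0.462) and Bcat2 (3.79 ± 0.841).

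This order rests on the gene length used. The deposited lengths are the union of all exons of a gene and match those of GENCODE M21 for all 9 members, and they exceed the longest protein-coding transcript with a consensus coding sequence (CCDS) by 7.26 times for Auh (9580 against 1320 bases), 5.58 times for Hibadh (10179 against 1825) and 4.46 times for Mccc1 (10952 against 2455), but by 1.09 times for Bckdk and not at all for Bckdha. Scaled to the CCDS transcript length, Hibadh ranked first in all 4 groups, at 133 ± 11.9 FPKM in Ctrl, 106 ± 13.5 in B2D, 152 ± 10.4 in Ctrl+FF and 156 ± 21.2 in B2D+FF. Reads from exons outside that transcript stayed in the count, so values on this scale are upper limits for the transcript. The order of the members is thus not settled by either length. Auh then lay at 33.9 ± 5.74 in Ctrl, close to Dbt at 37.1 ± 4.27, and Mccc1 came to 15.7 ± 1.57, still below Mccc2 at 29.7. The kinase Bckdk was last in all 4 groups on this scale, between 4.23 and 4.74. A ratio of FPKM between mice for 1 gene does not depend on its length, but log2(FPKM + 1), used for the tests below, shrinks the change of a gene whose FPKM is low. With a pseudocount of 0.1, the log2 fold change of B2D against Ctrl went from -0.35 to -0.42 for Auh and from -0.14 to -0.18 for Mccc1, and neither passed the threshold.

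**Figure D2:**
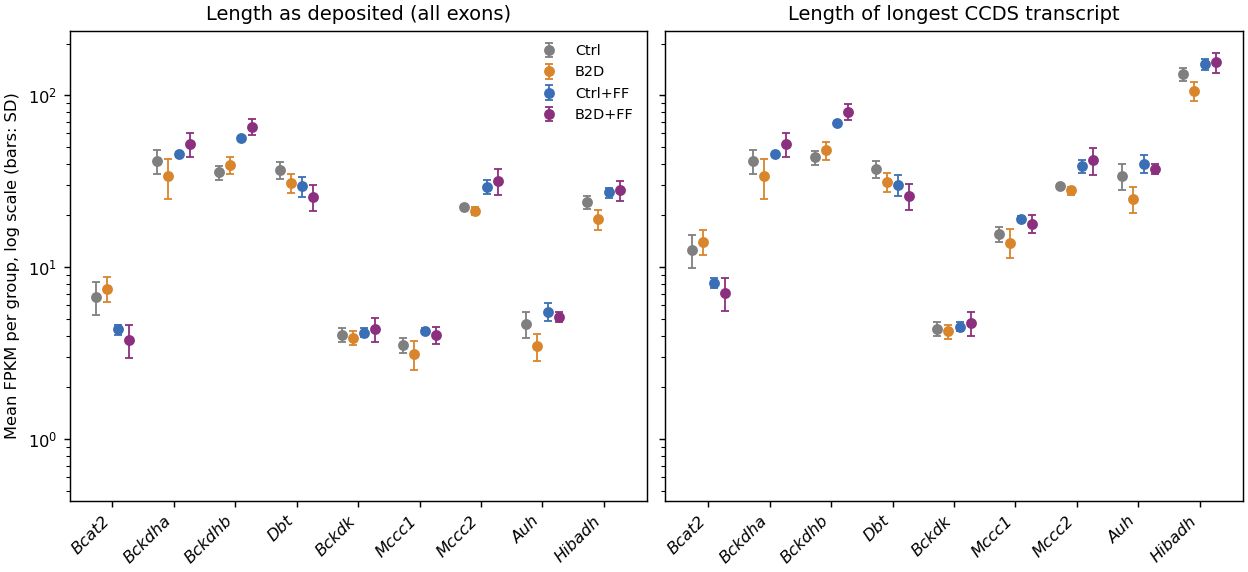
Mean FPKM of each gene per group (y axis, log scale, bars SD), with the deposited all-exon length on the left and the length of the longest CCDS transcript on the right. Reads of all exons are counted in both panels, so values on the right are upper limits for the transcript. Hibadh, Auh and Mccc1 move up on the right, with Hibadh highest in all 4 groups, and Bckdk is lowest there.

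Other genes share exon bases with 4 members, and the shares are large for Bckdha and Bcat2, where the other gene lies on the opposite strand. The library kit named in the study's methods does not mark strand. In GENCODE M21, 61.7% of the exon bases of Bckdha (1171 of 1899) are shared with exons of B3gnt8, which lies on the opposite strand and was counted at 0.149 to 0.528 FPKM. Of the exon bases of Bcat2, 622 are shared with the antisense RNA gene 0610005C13Rik. It was at 41.8 to 56.7 FPKM in the first experiment and 30.3 to 40.9 in the second, each on its own table's scale. Reads from such shared bases cannot be assigned to a strand here, so the levels of Bckdha and Bcat2 are uncertain. For Mccc1 the shared bases are 94 with Gm15952, 198 with Mccc1os and 321 with the pseudogene B230207O21Rik, all on the opposite strand. For Hibadh they are 122 with the snoRNA gene Gm24355, on the same strand as Hibadh. Each of these shares is under 3% of the member's exon bases. The antisense gene 0610005C13Rik itself had a log2 fold change of -0.11 for B2D against Ctrl (limma adjusted p = 0.646) and 0.14 for B2D+FF against Ctrl+FF (limma adjusted p = 0.435).

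The comparison of B2D with Ctrl asks whether a shortage of riboflavin changed the mRNA of the pathway. In the first experiment 11574 genes reached a mean of 0.5 FPKM and were tested by limma on log2(FPKM + 1), on which scale all log2 fold changes are given and which understates those of low genes, with Benjamini-Hochberg adjustment over all genes tested. All 9 members passed the filter, and 0 of 9 passed an adjusted p of 0.05, where 2.7% of all tested genes did. At an unadjusted p under 0.05, 2 of 9 passed, Hibadh and Auh, both lower in B2D, which is 22.2% beside 18.4% of all tested genes, so the share of members was near that of the rest. limma voom on the reads recovered from the values also called 0 of 9, beside 3.48% of all tested genes, with 2 of 9 at an unadjusted p under 0.05, beside 18.8%. Of the 9, 7 had a mean log2 level below Ctrl, beside 50.2% of all tested genes. The members share libraries and scaling, so this count is a description only. The median log2 fold change was -0.14 for the members, -0.0013 for all tested genes and -0.045 for all genes averaging at least 5 FPKM. B2D and Ctrl overlapped for all 9, while 4.98% of all tested genes did not overlap.

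In the second experiment 11878 genes were tested, and 0 of 9 members passed the adjusted threshold, where 4.45% of all genes did. None of the 9 passed an unadjusted p under 0.05 by limma or by limma voom, against 21.2% of all genes by limma and 21.6% by voom, and voom also called 0 of 9 at the adjusted threshold (6.25% of all genes). The members split into 5 higher and 4 lower in B2D+FF, and 47.2% of all genes were lower. The median log2 fold change was 0.03 for the members and 0.01 for all genes, and no member separated the diets, as 14.3% of all genes did. Whether the effect of B2D itself differed with and without fenofibrate was tested as a contrast over all 18 libraries and 11031 genes. Again 0 of 9 members passed the adjusted threshold by limma (0.145% of all genes) or by limma voom (0.109%), and at an unadjusted p under 0.05 there was 1 of 9 by limma, Hibadh (11.9% of all genes), and 2 of 9 by limma voom, Bckdha and Hibadh (also 11.9%). Of the 9, 8 had a higher B2D effect with fenofibrate, while 47.1% of all genes had a lower one. With upper-quartile or quantile scaling, 6 of 9 members had a higher one. The median difference was 0.09 for the members and 0.02 for all genes. For the 4421 genes averaging at least 5 FPKM in both tables it was 0.10, so the members' median was not above that of well-expressed genes. With upper-quartile scaling the median of all genes was -0.045. No member is thus shown to respond differently in the 2 experiments.

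**Figure D3:**
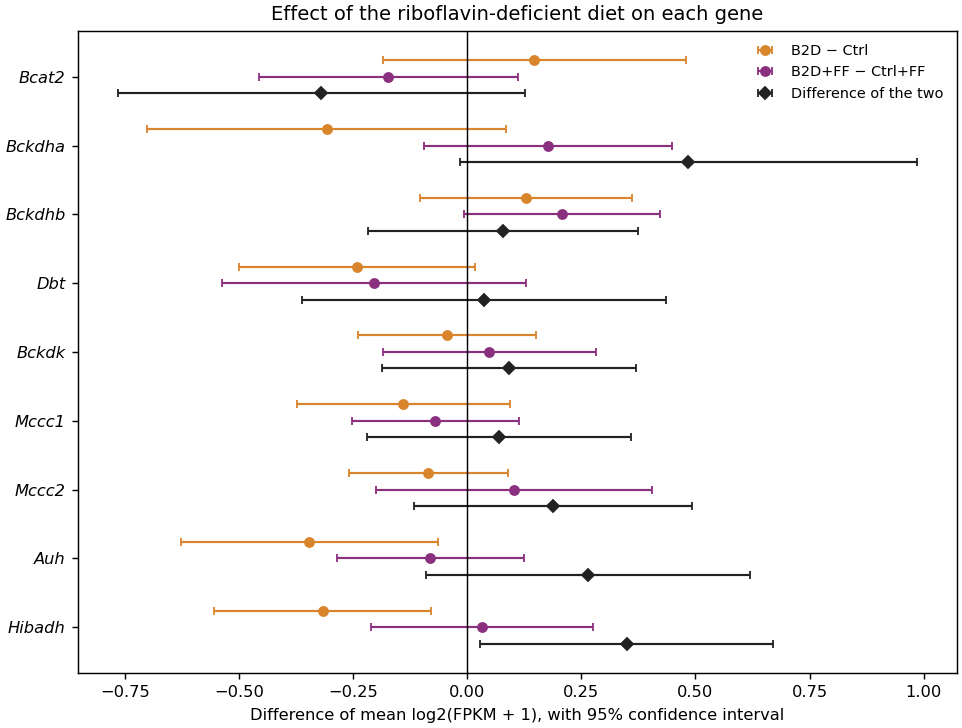
Difference of mean log2(FPKM + 1) between B2D and Ctrl, between B2D+FF and Ctrl+FF, and between these 2 effects (x axis), for each gene (y axis), with 95% confidence intervals from limma. Intervals without fenofibrate lie wholly below 0 for Auh and Hibadh, all intervals with fenofibrate span 0, and the interval of the difference lies wholly above 0 for Hibadh.

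Bcat2 (ENSMUSG00000030826, chromosome 7 of GRCm38 from 45570153 to 45589711), whose enzyme takes the amino group off all 3 amino acids, was measured at 6.92, 8.02, 7.07, 7.47 and 4.24 FPKM in Ctrl 1 to 5 and at 6.91, 7.86, 6.18, 7.12 and 9.43 FPKM in B2D 1 to 5. Ctrl 5, the Ctrl library with the fewest detected genes, was the lowest of all 10, and the other mice of both diets were interleaved. With fenofibrate, FPKM was 4.64, 4.14, 4.53 and 4.05 in Ctrl+FF and 3.52, 4.55, 4.37 and 2.73 in B2D+FF, again overlapping. The log2 fold change was 0.15 (95% interval -0.18 to 0.48) for B2D against Ctrl and -0.17 (-0.46 to 0.11) for B2D+FF against Ctrl+FF. Without Ctrl 5 and B2D 3, left out after the data were seen, the first was 0.07. Bcat1, the cytosolic transaminase, was at most 0.01 FPKM in any library and was not tested.

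The E1α subunit gene Bckdha (ENSMUSG00000060376, chromosome 7, 25629946 to 25658981) varied more between B2D mice than any other member did within a group, with a coefficient of variation of 26.5%. Its FPKM was 48.9, 42.1, 39.7, 44.9 and 31.3 in Ctrl and 43.6, 33.2, 24.0, 42.2 and 26.1 in B2D. B2D 1, 2 and 4 lay within the range of the Ctrl mice, and B2D 3 and B2D 5 below all of them. With fenofibrate the controls were tight, at 44.5, 45.6, 44.4 and 47.5, and B2D+FF was spread on both sides of them, at 53.4, 40.3, 54.8 and 59.8. The log2 fold change was -0.31 (95% interval -0.70 to 0.09) without and 0.18 (-0.10 to 0.45) with fenofibrate. The first interval allows a fall of up to 0.70, and the difference of the 2 effects was 0.48 (-0.02 to 0.98, limma adjusted p = 0.423). Ctrl 5 and B2D 3 were the lowest of their groups, and without both the first effect was -0.29.

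Bckdhb (ENSMUSG00000032263, chromosome 9, 83925145 to 84124240), the E1β partner, had a mean above the control in both experiments. It was at 32.3, 36.0, 38.3, 39.2 and 32.2 FPKM in Ctrl and at 39.9, 34.1, 36.7, 46.0 and 38.6 in B2D, where 2 B2D mice exceeded every Ctrl mouse and the rest overlapped them. With fenofibrate it was at 57.9, 57.7, 54.8 and 55.5 in Ctrl+FF and at 64.0, 57.2, 66.7 and 74.6 in B2D+FF, where 3 of 4 B2D+FF mice exceeded every control. The log2 fold change was 0.13 (95% interval -0.10 to 0.36) and 0.21 (-0.0075 to 0.42, limma adjusted p = 0.252).

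Dbt (ENSMUSG00000000340, chromosome 3, 116513070 to 116549981), the E2 core, had means below the control in both experiments. Its FPKM was 29.8, 40.5, 36.8, 36.2 and 39.7 in Ctrl and 30.6, 25.0, 30.8, 32.0 and 35.9 in B2D. All 5 B2D mice lay below Ctrl 2, 3, 4 and 5, but only B2D 2 lay below Ctrl 1. With fenofibrate it was 33.6, 28.6, 32.0 and 24.5 in Ctrl+FF and 19.1, 27.2, 27.8 and 28.9 in B2D+FF. The log2 fold change was -0.24 (95% interval -0.50 to 0.02, limma adjusted p = 0.305) and -0.20 (-0.54 to 0.13), and the second came to -0.07 without B2D+FF 1. The interval of the difference between the effects was -0.36 to 0.44.

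Bckdk (ENSMUSG00000030802, chromosome 7, 127904082 to 127910221), the kinase that inactivates the complex, had close means in all groups. It was at 4.56, 3.94, 3.50, 3.98 and 4.24 FPKM in Ctrl and 4.26, 3.84, 4.09, 3.99 and 3.30 in B2D, fully interleaved. With fenofibrate it was at 4.42, 4.31, 3.89 and 4.02 in Ctrl+FF and 4.50, 3.42, 5.15 and 4.41 in B2D+FF. The log2 fold changes, -0.04 (95% interval -0.24 to 0.15) and 0.05 (-0.18 to 0.28), had intervals that reached no further than 0.28 from 0, and the sign of each depended on single mice.

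On the leucine branch, Mccc2 (ENSMUSG00000021646, chromosome 13, 99948530 to 100015639), the β subunit of the carboxylase, had among the smallest spreads of the first experiment. It was at 23.0, 23.1, 21.6, 22.2 and 22.7 FPKM in Ctrl and 21.8, 19.8, 20.7, 22.8 and 20.8 in B2D, where 3 B2D mice lay below every Ctrl mouse. In the second experiment it was wider, at 32.8, 30.2, 27.5 and 26.9 in Ctrl+FF and 31.6, 24.3, 33.7 and 37.8 in B2D+FF. The log2 fold changes were -0.08 (95% interval -0.26 to 0.09) and 0.10 (-0.20 to 0.40).

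Mccc1 (ENSMUSG00000027709, chromosome 3, 35959312 to 36000678), the biotin-carrying α subunit, was at 3.19, 3.48, 3.43, 3.35 and 4.11 FPKM in Ctrl and 2.87, 2.57, 2.94, 4.14 and 3.08 in B2D. Of the 5 B2D mice, 4 lay below every Ctrl mouse and B2D 4 above them all. With fenofibrate it was at 4.45, 4.14, 4.09 and 4.35 in Ctrl+FF and 3.58, 3.80, 4.65 and 4.06 in B2D+FF. The log2 fold changes were -0.14 (95% interval -0.37 to 0.09) and -0.07 (-0.25 to 0.11).

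Auh (ENSMUSG00000021460, chromosome 13, 52835119 to 52929681), the hydratase that follows the carboxylase, was at 4.61, 5.52, 4.73, 5.06 and 3.40 FPKM in Ctrl and 3.42, 3.94, 2.44, 3.84 and 3.63 in B2D. Of the 5 Ctrl mice, 4 lay above every B2D mouse, and Ctrl 5 was below 4 of them. The log2 fold change was -0.35 (95% interval -0.63 to -0.06), which did not pass adjustment over all genes (limma adjusted p = 0.184, from 0.0735 to 0.366 over the alternatives). Without Ctrl 5 and B2D 3, the lowest of their groups, it was -0.34 (limma adjusted p = 0.0933). With fenofibrate the levels were 5.51, 5.53, 6.31 and 4.72 in Ctrl+FF and 5.14, 4.63, 5.41 and 5.42 in B2D+FF, with a log2 fold change of -0.08 (-0.29 to 0.12).

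On the valine branch, Hibadh (ENSMUSG00000029776, chromosome 6, 52546228 to 52640389), whose product oxidizes 3-hydroxyisobutyrate with NAD, was at 22.8, 26.0, 20.6, 24.5 and 25.2 FPKM in Ctrl and 18.9, 15.7, 19.3, 22.5 and 18.5 in B2D. Only B2D 4 overlapped the Ctrl mice, and the other B2D mice lay below them all. The log2 fold change was -0.32 (95% interval -0.55 to -0.08), with a limma adjusted p of 0.155 that ran from 0.0700 to 0.310 over the alternatives. B2D 2, the lowest mouse and the one with the highest Adipoq level, carried part of it, and the log2 fold change without that library was -0.25. With fenofibrate the levels were 29.4, 27.3, 27.4 and 24.8 in Ctrl+FF and 24.3, 25.4, 29.8 and 32.5 in B2D+FF, a log2 fold change of 0.03 (-0.21 to 0.28). The difference between the 2 effects was 0.35 (0.03 to 0.67, limma adjusted p = 0.373), which did not pass the threshold.

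Because library scaling cancels when 2 genes are divided within a mouse, 5 ratios of FPKM were compared between the diets in each experiment by exact permutation tests, two-sided, 10 tests in all. With 5 mice against 5 the smallest p is 0.00794 and with 4 against 4 it is 0.0286, and 0 of the 10 passed after Benjamini-Hochberg adjustment, with 1 of 10 at an unadjusted p under 0.05. The ratio of the 2 E1 subunits, Bckdha to Bckdhb, had the smallest p. It was 1.51, 1.17, 1.04, 1.15 and 0.972 in Ctrl and 1.09, 0.974, 0.653, 0.917 and 0.675 in B2D, so 3 B2D mice lay below every Ctrl mouse and the others overlapped them. On the log2 scale the difference, B2D minus Ctrl, was -0.45 (mean and SD over 5 mice 0.21 ± 0.25 in Ctrl, -0.24 ± 0.33 in B2D, exact permutation p = 0.0397, adjusted p = 0.397). With fenofibrate the same ratio was 0.769, 0.791, 0.810 and 0.856 in Ctrl+FF and 0.835, 0.704, 0.821 and 0.801 in B2D+FF, with a difference of -0.03 (exact permutation p = 0.714).

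The kinase relative to its substrate, Bckdk to Bckdha, was 0.0933, 0.0935, 0.0883, 0.0887 and 0.136 in Ctrl and 0.0979, 0.115, 0.170, 0.0945 and 0.127 in B2D. Ctrl 5 stood alone among the controls and overlapped the B2D mice. The log2 difference was 0.26 in the first experiment and -0.12 in the second (exact permutation p = 0.222 and 0.171). The kinase relative to its opposing phosphatase, Bckdk to Ppm1k, differed by 0.21 and by 0.35 (exact permutation p = 0.325 and 0.0857), with 3 of 4 B2D+FF mice, at 0.317, 0.257 and 0.251, above every Ctrl+FF mouse (0.182 to 0.214) and the fourth at 0.202 among them. Dbt to Bckdha differed by 0.07 and -0.39 (exact permutation p = 0.794 and 0.143), and Mccc1 to Mccc2 by -0.10 and -0.19 (exact permutation p = 0.397 and 0.257). The level of each ratio depends on the gene lengths used. The carboxylase ratio had a mean of 0.156 in Ctrl with the deposited lengths and 0.526 with CCDS lengths. Bckdha to Bckdhb had 1.15 and 0.944 in Ctrl, so on which side of 1 it lay was not settled. For all these ratios, only the change between mice can be read. The part of reads from bases shared with B3gnt8 in the ratios with Bckdha was not tested.

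**Figure D4:**
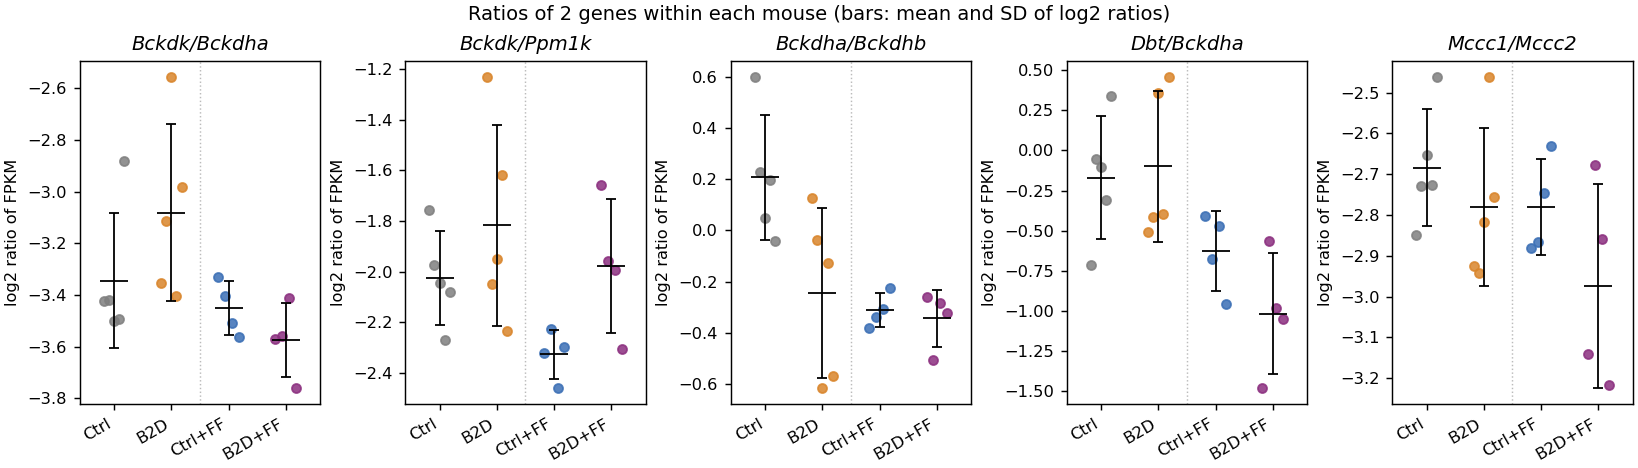
Log2 ratio of FPKM of 2 genes within each mouse (y axes, 1 panel per ratio), by group (x axes), with the group mean and SD as bars and a dotted line between the experiments. Bckdha/Bckdhb lies lower in B2D than in Ctrl with overlap, and Ctrl 5 is the high control for Bckdk/Bckdha.

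The 2 experiments can be set side by side only as levels, here recomputed with 1 set of size factors over all 18 libraries and without a test, since the tables were normalized separately and drug, time and experiment changed together. All 8 mice given fenofibrate lay above all 10 others for 2 of the 9 members, beside 7.23% of all 11031 genes. They were Bckdhb, at 56.3 to 76.3 against 31.7 to 45.4 FPKM, and Mccc2, at 24.6 to 38.6 against 19.6 to 22.9. For 0 of 9 were they all below, beside 3.37% of all genes. Bcat2 had the lowest ratio of means, 0.591 (2.79 to 4.70 with against 4.18 to 9.20 without fenofibrate), overlapping through Ctrl 5 alone. The antisense gene 0610005C13Rik, which shares exon bases with Bcat2, was also lower in the second experiment on the tables' own scales. Its part in the Bcat2 values was not tested. Hibadh, Auh and Bckdha had ratios of 1.33, 1.36 and 1.34, Mccc1 1.29, Bckdk 1.11 and Dbt 0.849, all with overlap. The ratio was larger between the deficient groups than between the controls for 8 of 9 members, with the widest gaps for Bckdha (1.60 against 1.13), Hibadh (1.53 against 1.18), Auh (1.55 against 1.22) and Mccc2 (1.56 against 1.34), and smaller for Bcat2 (0.525 against 0.664). This is the same difference of effects tested above, past the threshold for none of the 9. The marker sums given above differed between the experiments too, and the hepatocyte sum, which is largely Alb, was lower in all 8 mice given fenofibrate. Of the hepatocyte markers, only Alb, Ttr and Fgb were lower there without overlap on the tables' own scales. Hnf4a was at 106 to 163 in Ctrl, 108 to 266 in B2D, 104 to 142 in Ctrl+FF and 145 to 167 in B2D+FF. The part of these markers in the ratios was not tested.

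The remaining genes of the pathway, 30 found in the tables, cover the other enzymes of the 3 branches, propionate and cobalamin handling, amino acid transport and regulators. Of 29 tested in B2D against Ctrl, 0 passed in either direction by limma, beside 2.7% of all tested genes. At an unadjusted p under 0.05, 7 were lower and 2 higher, beside 18.4% of all tested genes in either direction. The median log2 fold change was -0.12. limma voom on the recovered reads called 2 of the 29, Ivd and the cobalamin gene Mmaa, both lower in B2D, beside 3.48% of all tested genes. Ivd, the FAD-dependent dehydrogenase just before the carboxylase, was at 37.6, 36.9, 37.5, 38.0 and 35.8 FPKM in Ctrl and 31.4, 26.6, 22.3, 27.6 and 30.3 in B2D, with every B2D mouse below every Ctrl mouse. Its log2 fold change of -0.42 (95% interval -0.65 to -0.20) had a limma adjusted p of 0.0505 and passed under 4 other settings and without B2D 1. It did not pass with a pseudocount of 0.1, no filter, upper-quartile or quantile scaling (limma adjusted p up to 0.118). Nor did it without any other single mouse (up to 0.136, without Ctrl 4). Of all tested genes, 4.98% separated the diets like Ivd. The cobalamin gene Mmab, named after its values were seen, did so too. The acyl-CoA dehydrogenases of the other branches, named after their values were seen like Mmaa, had unlike values. Acadsb, on the isoleucine branch, was at 13.3 ± 1.79 FPKM (SD, n = 5) in B2D and 18.4 ± 1.97 in Ctrl, without overlap (log2 fold change -0.44, limma adjusted p = 0.0622). Acad8, on the valine branch, had a log2 fold change of 0.02 (95% interval -0.20 to 0.24, limma adjusted p = 0.935). Dld, the shared E3 flavoprotein, had a log2 fold change of 0.03 (-0.22 to 0.28), and Ppm1k, the phosphatase, one of -0.25 (-0.55 to 0.05).

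Of 27 of these genes tested in B2D+FF against Ctrl+FF, 1 was higher and 1 lower past the threshold, beside 4.45% of all tested genes in either direction. Their median log2 fold change was 0.0038. Slc3a2, the heavy chain of the leucine transporter and an amino acid stress gene, was at 7.94, 8.56, 7.79 and 9.15 FPKM in Ctrl+FF and 18.1, 12.3, 11.6 and 16.5 in B2D+FF, all above the controls (log2 fold change 0.72, limma adjusted p = 0.0239). Mlxipl, which encodes the carbohydrate-responsive factor ChREBP, known to induce Bckdk and repress Ppm1k, was at 28.6, 31.7, 32.0 and 31.8 in Ctrl+FF and 19.6, 16.7, 15.3 and 16.3 in B2D+FF, all below the controls (log2 fold change -0.84, limma adjusted p = 0.00269). Bckdk and Ppm1k did not pass beside it, with log2 fold changes of 0.05 and -0.27. Separation of the diets without overlap was seen for 14.3% of all tested genes in this experiment. Of the other pathway genes, Dld, the regulator gene Klf15 and the cobalamin genes Mmadhc and Mmab also separated them. Dld had a log2 fold change of 0.34 (95% interval 0.13 to 0.55) and a limma adjusted p of 0.0726, which passed with array weights (0.0374) and quantile normalization (0.0379), and Ivd one of -0.23 (-0.49 to 0.03), beside -0.31 for Acadsb and -0.05 for Acad8.

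Enzymes built like the members, the pyruvate and 2-oxoglutarate dehydrogenases with their kinases, the other biotin carboxylases and lipoate synthesis, made up 21 genes, of which 19 were tested in each experiment. None passed by limma in B2D against Ctrl, beside 2.7% of all tested genes. At an unadjusted p under 0.05, 2 were lower and 2 higher, beside 18.4% of all tested genes in either direction. limma voom called 1, beside 3.48% of all tested genes, the kinase gene Pdk4, higher in B2D and named after its value was seen. In B2D+FF against Ctrl+FF, 2 of the 19 rose and 0 fell past the threshold, beside 4.45% of all tested genes in either direction. Both encode subunits of the pyruvate dehydrogenase core. Dlat, the E2 that corresponds to Dbt, was at 11.4, 10.8, 9.56 and 11.6 FPKM in Ctrl+FF and 13.4, 15.2, 14.2 and 15.2 in B2D+FF (log2 fold change 0.39, limma adjusted p = 0.0364). Pdhx, the E3-binding protein, was at 8.31, 7.90, 8.21 and 8.78 in Ctrl+FF and 12.98, 11.9, 10.1 and 11.0 in B2D+FF (0.42, limma adjusted p = 0.0294). In both, every B2D+FF mouse lay above every control, as was also so for the sister genes Pdhb and Dlst. Of all tested genes, 14.3% separated the diets in either direction. Dbt in the same libraries had the value of -0.20 given above. The calls on Slc3a2, Dlat and Pdhx were lost without single mice, with a limma adjusted p of up to 0.107 (Dlat without Ctrl+FF 2), and without a filter on low values, and that on Dlat also with all 4 groups in 1 fit. Of the pathway and sister genes, 0 passed by limma (0.145% of all tested genes) or by limma voom (0.109%) in the difference between the experiments. By limma, 5 of 27 pathway genes and 5 of 19 sister genes had an unadjusted p under 0.05 there, beside 11.9% of all tested genes.

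Within groups, members varied together only in part. After the 4 group means were removed from log2(FPKM + 1), 27 of the 36 pairs had a positive Pearson r over the 18 libraries, with a median of 0.23. The highest were Mccc1 with Hibadh (0.70), Bckdk with Mccc2 (0.67), Mccc2 with Hibadh (0.67), Dbt with Hibadh (0.67) and Bckdhb with Mccc2 (0.63), and the lowest was Bcat2 with Bckdk (-0.38). Bcat2 with Auh (0.60) and Bckdha with Auh (0.58) rested on Ctrl 5 and B2D 3, without which they were 0.18 and 0.18 over 16 libraries. Without these 2 libraries both ends of the ranking changed, with Bckdha and Bckdk highest (0.74, against 0.46 over all 18) and Bcat2 and Bckdha lowest (-0.62, against 0.05), and 28 of 36 pairs were positive with a median of 0.28. The E1α and E2 genes, Bckdha and Dbt, had an r of -0.27. These values share library and scaling and are a description only.

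**Figure D5:**
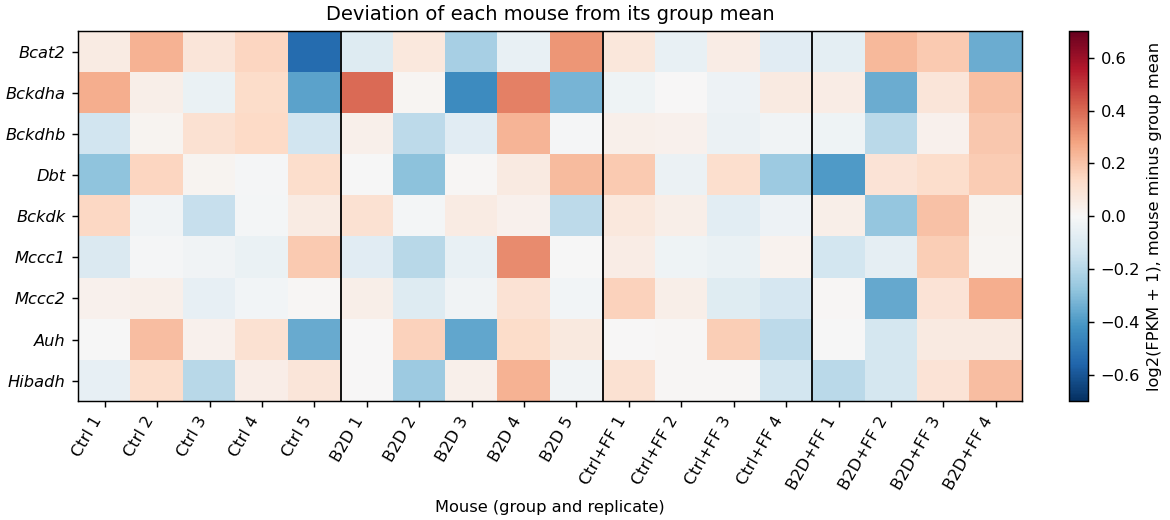
Deviation of each mouse (x axis) from its group mean in log2(FPKM + 1) (colour), for each gene (y axis), with black lines between the groups. Ctrl 5 and B2D 3 are low for Bcat2, Bckdha and Auh but not for Dbt and Hibadh, and B2D 2 is low for Dbt, Mccc1 and Hibadh.

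Among 4221 named protein-coding genes with a mean of at least 5 FPKM in both tables, those most like Bckdha in these deviations were Macrod1 (Pearson r = 0.92), Lsr (0.91) and Cmtm8 (0.90), which stayed between 0.85 and 0.90 without Ctrl 5 and B2D 3. Those most like Bckdk were Aldh2 (0.85), H2-K1 (0.82) and Ctsf (0.80). Those most like Bcat2 were the fibrinogen chain gene Fgg (0.80), Serpina10 (0.79) and Vegfa (0.77), the last at 0.55 without the same 2 libraries.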

How the data were processed

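RNA was extracted from 18 livers, and mRNA libraries were sequenced as paired reads. The authors used STAR to align reads to mm10 and featureCounts to count them, and deposited FPKM values, 1 table per experiment (versions are not given in the sources used here). The study's methods call the values RPKM. Whole reads were recovered from the step between values: 100% of values under 1000 reads were whole within 0.1 of a read in every library. The authors' scaling matched median-of-ratios size factors within each table, so tables were fitted separately, and FPKM of different tables were compared with no test.

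log2(FPKM + 1) was tested by limma 3.58.1 in R 4.3.3 with a trend, for genes averaging 0.5 FPKM or more, each table alone and the contrast of the effects in 1 fit of 18 libraries, with Benjamini-Hochberg adjustment over all genes tested and a threshold of 0.05. Ratios were tested by exact permutation in Python 3.11.15. The limma and limma voom tests were run on simulated reads in which some genes were changed by more than any member was here. That run does not show whether effects of the members' size would be found. Alternatives were a pseudocount of 0.1, no filter, a minimum mean FPKM of 5, upper-quartile and quantile scaling, array weights, limma voom on recovered reads, all 4 groups in 1 fit, each library left out in turn, and, added after the data were seen, Ctrl 5 and B2D 3 left out together and CCDS lengths. GENCODE M21 gave exons, lengths and sequences. Labels gave each mouse its group, mice are numbered in accession order, and all groups are of separate mice. The members and gene lists were chosen with earlier results of these data known. Named genes are the members, other pathway and sister genes past the threshold, Dld, Ppm1k, Bcat1 and Ivd, and the 3 genes most like Bcat2, Bckdha and Bckdk.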

Additional observations from a re-analysis of the deposited data

Results flagged for a closer look

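In each group of 4 or 5 mice, the highest and the lowest values were checked for a gap to the nearest mouse above Dixon's 95% critical value, for the 9 genes and the 5 ratios, 56 sets of values in all. Chance alone is set to mark 5% of such sets, and 2 were marked. Dbt in B2D+FF 1 was 19.1 FPKM, below the 27.2 to 28.9 FPKM of the other B2D+FF mice. The log2 ratio of Bckdk to Bckdha in Ctrl 5 was -2.88, above the -3.50 to -3.42 of the other Ctrl mice, and Ctrl 5 was also the Ctrl library with the fewest detected genes. The part of either library's quality in these values was not tested.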

How the results depend on the processing

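No member passed an adjusted p of 0.05 in any of the 3 comparisons under any alternative run, and no ratio did. The smallest limma adjusted p of a member was 0.0700 (Hibadh, all 4 groups in 1 fit) for B2D against Ctrl, 0.0934 (Bckdha, without B2D+FF 2) for B2D+FF against Ctrl+FF and 0.181 (Bckdha, array weights) for the difference. With 1 mouse left out, the median of the members ran from -0.22 to -0.09, from -0.04 to 0.07 and from 0.07 to 0.18 in the 3 comparisons. The number of all genes called moved far more, from 98 to 332 against 313, from 175 to 596 against 529 and from 8 to 44 against 16 with 1 mouse left out, and from 67 to 727, from 272 to 885 and from 6 to 112 under the other settings. Upper-quartile scaling split the calls with fenofibrate into 366 lower and 223 higher, against 263 and 266.

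Signs of effects near 0 turned. With upper-quartile scaling, the effect with fenofibrate was -0.0011 for Bckdk and -0.027 for Hibadh (3 of 9 members higher, against 5), and the difference of effects was -0.0017 for Bckdhb and -0.042 for Dbt. With quantile normalization, the difference was -0.050 for Bckdhb and -0.061 for Dbt, and Mlxipl had 0.039 in B2D against Ctrl. With array weights, the difference for Ppm1k was 0.11. With 1 mouse left out, B2D against Ctrl ran from -0.084 to 0.0023 for Bckdk, from -0.031 to 0.077 for Dld, from -0.14 to 0.095 for Mlxipl and from -0.071 to 0.20 for log2 Dbt/Bckdha. B2D+FF against Ctrl+FF ran from -0.021 to 0.14 for Bckdk, from -0.040 to 0.095 for Hibadh and from -0.059 to 0.023 for log2 Bckdha/Bckdhb, and the difference from -0.049 to 0.17 for Dbt and from -0.14 to 0.085 for Ppm1k. The cause was not tested. With 4 or 5 mice a group, the 95% intervals over both experiments reached at most between 0.28 (Bckdk) and 0.70 (Bckdha) from 0, depending on the gene. They are on log2(FPKM + 1), which shrinks the changes of low genes such as Bckdk, so these limits are not fold changes to be compared between genes.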
